A study of Mus musculus with 7 samples.

Results

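The genes described here are 46 cell cycle and DNA replication genes, chosen by name as textbook components of the machinery that copies and divides the genome. All 46 were found among the 25965 rows of the deposited expression table. RNA-seq had been performed on the posterior end of E9.5 mouse embryos, cut behind the last visible somite; the sample labels name this piece postsomitic mesoderm, and the series title names it presomitic mesoderm. All embryos were female and of the FVB/N strain. The wild-type group (Smchd1 +/+) held 3 libraries, and the null group, homozygous for the MommeD1 allele of Smchd1, held 4, whereas the series' design text gives 3 null samples. The product of Smchd1 is a chromatin protein related to the SMC ATPases and acts in X-chromosome inactivation. The allele is present in every cell of the embryo, and the labels do not say whether a library is 1 embryo or a pool, so a p-value covers only the variation from library to library, which may be technical. The comparison asked which transcripts differ when Smchd1 is lost.

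In a dividing cell, the MCM helicase is loaded on origins in G1 by Cdc6 and Cdt1 and is switched on with Cdc45 and the GINS complex as S phase begins. D-type cyclins with Cdk4 and E-type cyclins with Cdk2 phosphorylate the pocket proteins Rb1, Rbl1 (p107) and Rbl2 (p130), which releases E2F factors to transcribe the replication genes. Cyclins A and B with Cdk1, the Plk1 and Aurora kinases, and the Bub1 checkpoint then carry the cell through mitosis, and their genes are transcribed later in the cycle. The tailbud is a growing tissue in which most cells cycle. Rbl1 and Rbl2 also act in the DREAM complex. This complex represses the same genes in resting cells and downstream of p53 through E2F and CHR promoter elements.

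Promoter elements of E2F, DREAM and NF-Y differed between the role groups, so 4 promoters are shown before the values. A promoter window runs from 250 bases before to 50 bases after a transcription start, from RefSeq on GRCm38.p6. Windows were found for 36 of the 46 members; those without an entry were Mcm4, Gins1, Gins2, Ccne2, Ccna2, Aurkb, Tpx2, Ccnd1, Ccnd2 and Rb1. The E2F element was searched as TTTCCCGC, TTTCGCGC, TTTGCCGC or TTTGGCGC, the CHR element as TTTGAA or TTCGAA, and the NF-Y box as CCAAT, each on both strands. The 4 windows below are of genes whose null and wild-type libraries did not overlap: a helicase subunit, its loader, a mitotic kinetochore gene, and the pocket protein Rbl2. Capitals mark every match, and each line is read along the strand of its gene. The Mcm3 window is chr1:20820263-20820562 on the minus strand, Cdc6 is chr11:98907901-98908200 on the plus strand, Cenpf is chr1:189688037-189688336 on the minus strand, and Rbl2 is chr8:91069807-91070106 on the plus strand.
Mcm3: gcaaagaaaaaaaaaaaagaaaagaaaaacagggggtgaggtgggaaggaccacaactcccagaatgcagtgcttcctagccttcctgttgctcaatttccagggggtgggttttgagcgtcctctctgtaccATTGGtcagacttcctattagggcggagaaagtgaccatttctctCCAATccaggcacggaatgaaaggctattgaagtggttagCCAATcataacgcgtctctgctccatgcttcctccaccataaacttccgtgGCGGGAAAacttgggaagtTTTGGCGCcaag
Cdc6: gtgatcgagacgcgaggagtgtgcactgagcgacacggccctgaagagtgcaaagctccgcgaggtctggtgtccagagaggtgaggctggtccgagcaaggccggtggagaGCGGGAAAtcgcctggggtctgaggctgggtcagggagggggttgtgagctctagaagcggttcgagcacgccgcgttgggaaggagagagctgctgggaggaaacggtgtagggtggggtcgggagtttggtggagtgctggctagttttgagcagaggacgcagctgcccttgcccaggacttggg
Cenpf: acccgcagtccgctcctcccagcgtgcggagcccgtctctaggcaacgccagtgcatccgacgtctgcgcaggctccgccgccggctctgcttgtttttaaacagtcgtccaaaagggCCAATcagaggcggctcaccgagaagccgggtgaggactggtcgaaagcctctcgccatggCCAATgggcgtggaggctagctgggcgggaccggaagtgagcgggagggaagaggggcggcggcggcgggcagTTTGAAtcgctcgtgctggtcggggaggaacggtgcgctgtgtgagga
Rbl2: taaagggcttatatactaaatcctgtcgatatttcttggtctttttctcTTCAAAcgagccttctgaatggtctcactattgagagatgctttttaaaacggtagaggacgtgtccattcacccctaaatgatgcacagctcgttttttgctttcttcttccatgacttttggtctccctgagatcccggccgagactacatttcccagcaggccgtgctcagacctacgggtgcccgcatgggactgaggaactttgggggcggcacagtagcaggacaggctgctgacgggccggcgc

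Positions are counted from the RefSeq start. The Mcm3 window held 2 E2F matches, both downstream of the start, and 3 CCAAT boxes. The Cdc6 window held 1 E2F match, 138 bases upstream of the start. In the deposited table Mcm3 and Cdc6 start elsewhere, at bases 20820278 and 98907801. The whole Cdc6 window thus lies inside the gene as listed there, and the side of a match depends on the annotation. The Cenpf window held no E2F match but a CHR match at base 3 after the start, with 2 CCAAT boxes upstream of it. In Rbl2 the only match was a CHR element on the reverse strand, 201 bases upstream. Across role groups, E2F matches were found in 6 of 9 helicase and licensing genes and in 1 of 15 mitotic genes (Cdk1), against 2.61% of all 27025 genes with a window. CHR matches were found in 12 of 15 mitotic genes, against 21.7% of all genes, and CCAAT boxes in 14 of 15, against 41.1%. In helicase and licensing genes, CHR matches were found in 3 of 9 and CCAAT boxes in 7 of 9. Fork and nucleotide genes had E2F and CHR matches in 0 of 4 and CCAAT boxes in 3 of 4. G1/S genes had E2F matches in 3 of 8, CHR matches in 2 of 8 and CCAAT boxes in 3 of 8. A match describes the letters in the window and is no evidence of binding.

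**Figure D1:**
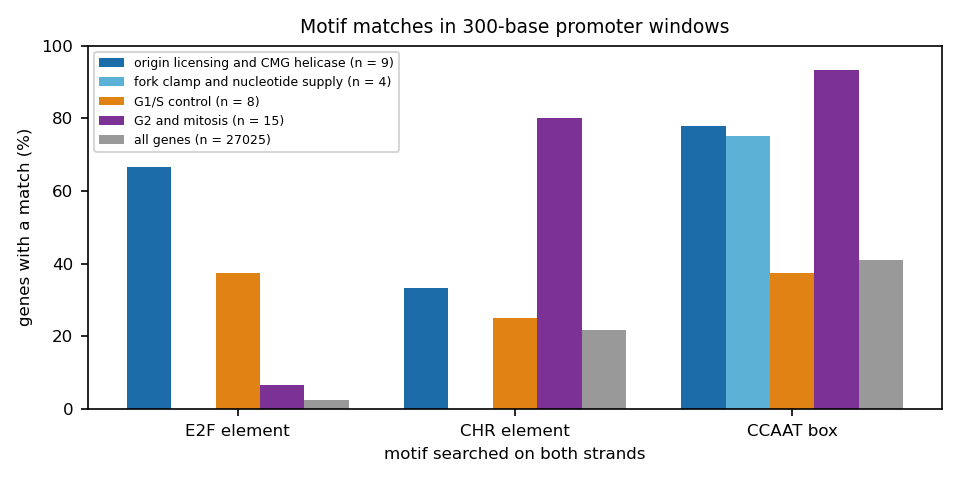
Share of genes with at least 1 match (y axis, percent) for each element (x axis), in each role group and in all genes with a promoter window; bars start at 0 and n is the number of genes. E2F matches were most frequent in helicase and licensing genes (66.7%), and CHR and CCAAT matches in mitotic genes (80% and 93.3%).

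The deposited values are log2 RPM, that is reads scaled to a fixed library denominator. Here each value is given relative to the median autosomal gene of its own library, and this is called the centred value: 0 is the level of that median gene, and 1 is a level 2 times as high. The medians averaged 4.13 in null and 3.94 in wild-type libraries, so centring lowers every change by 0.19. They were 4.19, 3.86 and 3.78 in wild-type A to C and 4.05, 4.10, 4.19 and 4.19 in null A to D. The lower wild-type mean thus came from wild-type B and C, while wild-type A stood with the null libraries. Reads in listed genes were 19622596 to 23847381 per library. Genotype was tested with limma on the 13997 genes kept by a filter on low values. All 46 members passed it, with values above the limit in all 7 libraries, and had between 314 and 11329 reads in a library. The counting error expected from these reads had a median of 0.027 (SD, log2) over members in each group, against a median spread between libraries of 0.052 in null and 0.11 in wild-type libraries. It was at or above the spread in 2 members, Ccnb1 and Ube2c, both in the null group, and was largest in Rbl2, at 0.064 in null and 0.076 in wild-type libraries. These values cover counting error only. Smchd1, which marks the genotype, had 5572 to 6552 reads in wild-type and 1922 to 2372 in null libraries, a centred change of -1.67 (SE 0.07, limma adjusted p = 9.54e-05). Libraries are lettered within their group, because the column names do not give the sample numbers.

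The members were abundant transcripts in both genotypes. Per kilobase of exon and on the deposited scale, the median member stood at the 87.9th percentile of the 12584 tested genes with a known exon length, and 34 of 46 were above the 75th percentile. Cdc20, the activator of the anaphase-promoting complex, was the most abundant per length at 24.1 RPKM (RPM per kilobase of exon), followed by Mcm5 at 23.2. These neighbours did not differ beyond their spread over libraries. Rbl2 was the least abundant at 0.933 RPKM and E2f2 the next at 1.83. Of the D cyclins, Ccnd1 was highest per length at 15.3 RPKM, against 8.32 for Ccnd2 and 4.54 for Ccnd3.

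No cell cycle or replication gene changed at an adjusted p under 0.05. None of the 46 was called in either direction, where 0.0572% of all tested genes were called, and the smallest limma adjusted p was 0.207, for Cenpf. Differences were small: the median centred change was -0.12, a level 0.920 times that of wild-type, and 44 of 46 changes were below 0. Over all tested genes the median was -0.03, and 57.5% were below 0. The 95% intervals of all 46 changes lay within a 1.5-fold difference either way, which held for 76.1% of all tested genes. The widest reached from -0.58 to 0.12, for E2f2. All tested genes are not matched to the members in expression level. The median SE was 0.058 over members and 0.091 over all tested genes. Interval widths and unadjusted p-values both depend on the SE. At an unadjusted p under 0.05, 17 members (37.0%) were lower in null tissue and 1 (2.17%) was higher, against 6.71% and 7.29% of all tested genes. In 7 members (15.2%) every null library lay below every wild-type library, against 6.24% of all tested genes, and in 1 (2.17%) every null library lay above, against 6.51%. The members share the same 7 libraries, so these counts are not independent observations.

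**Figure D2:**
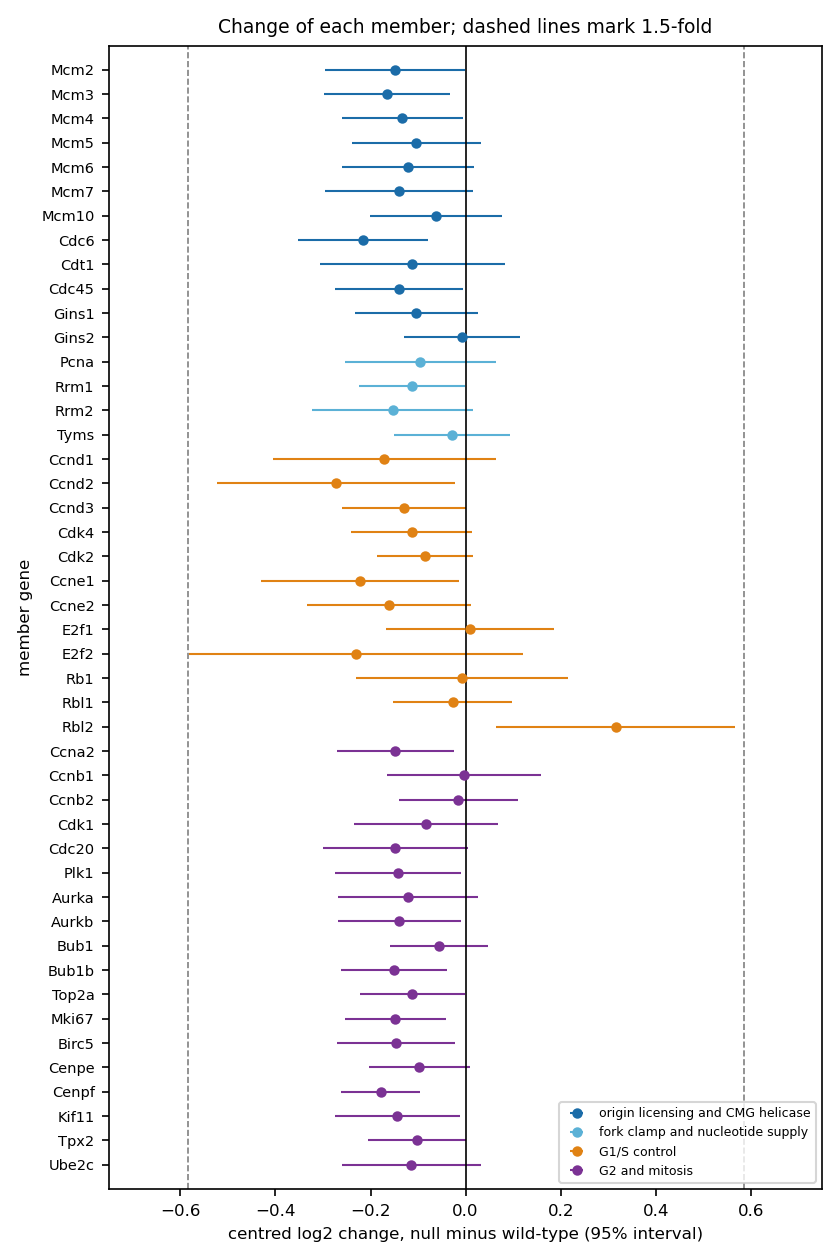
Centred log2 change of each member (centring on the kept autosomal genes), null minus wild-type (x axis), with its 95% limma interval; colours give the role group and dashed lines a 1.5-fold difference. All 46 intervals lie between the dashed lines, and Rbl2 is the only member whose interval lies wholly above 0.

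Of the scalings tried, only the deposited scale put the median member change above 0. On the deposited scale the median change of the members was 0.07, with 42 of 46 above 0, and the median of all tested genes was 0.16. The members stood 0.09 below the median gene on both scales by construction, because centring shifts all genes of a library alike. Quantile normalization and cyclic loess also even out trends with expression level and can alter this difference. With each, the median of the members was -0.06 with 36 of 46 below 0, and that of all tested genes was -0.02 and -0.01. The members then stood at -0.045 and -0.056 relative to the median gene. Centring on all rows of the table in place of the kept genes gave -0.26, with -0.17 for all tested genes. With limma voom on reads recovered from the values, the median of the members was -0.08 with 38 of 46 below 0. That of all tested genes was then 0.01. No member was called under any of these settings.

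**Figure D3:**
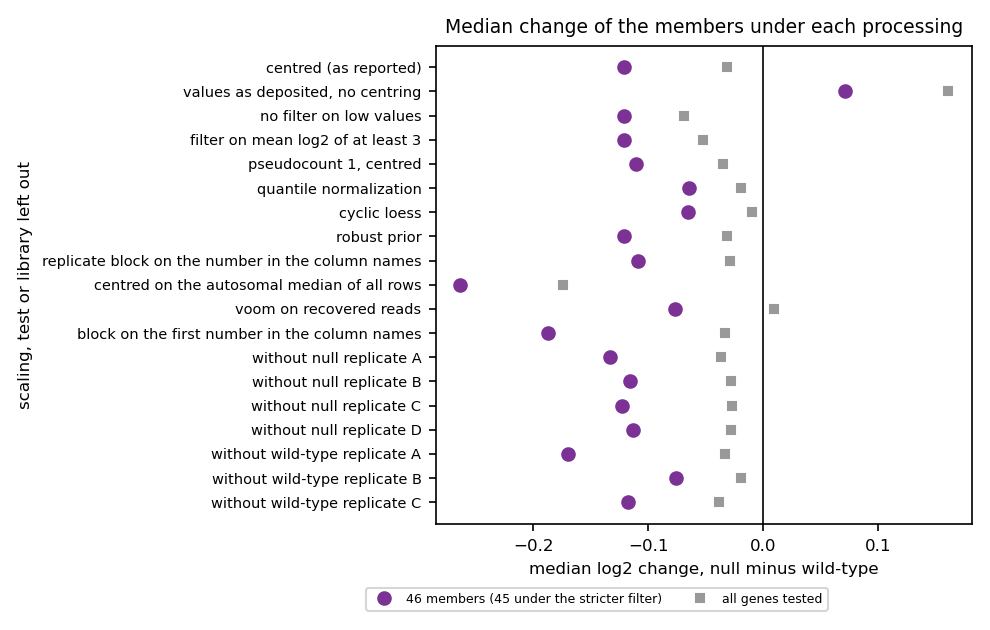
Median log2 change (x axis) of the members (circles) and of all genes tested (squares) under each processing choice or with 1 library left out (y axis). Circles lie to the left of the squares in every row, while their position relative to 0 depends on the scaling.

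Single libraries carried much of this difference. Wild-type library B had the highest centred value of the 7 libraries in 36 of 46 members and lay above every null library in 42, against 41.3% of all tested genes. Wild-type library C lay above every null library in 33 members, against 27.3% of all genes. Wild-type library A lay above them in only 9, against 20.3%, and fell within the range of the null libraries in 32. The mean centred value over all members was 1.51 in wild-type A, 1.68 in B and 1.58 in C, and 1.51, 1.48, 1.48 and 1.47 in null A to D. Wild-type A and null A thus did not differ at the second decimal, and the null libraries varied less (SD 0.02, n = 4) than the wild-type libraries (SD 0.09, n = 3). Without wild-type B the median member change was -0.08, with 39 members below 0, and without wild-type A it was -0.17. The column names also begin with a number whose meaning is not given in the sources used here. It is 4180 for wild-type B and C and null D, 4121 for wild-type A, 4159 for null A and 4168 for null B and C, so the higher 2 wild-type libraries share it and wild-type A does not.

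With this first number as a block, an alternative chosen after seeing the data, genotype is compared only between null D and wild-type B and C. The median member change was then -0.19, with 43 of 46 below 0 and -0.03 for all tested genes. No gene was called by limma, Smchd1 included (change -1.60, adjusted p = 0.320), while at an unadjusted p under 0.05 21 members were lower and 1 higher, against 1279 and 864 of all 13997 genes. Rbl2 had 0.56 and Cdkn1a 1.39 in this fit (adjusted p = 0.320 for each). With 1 null library in it, the comparison assumes that null D varies like the others.

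**Figure D4:**
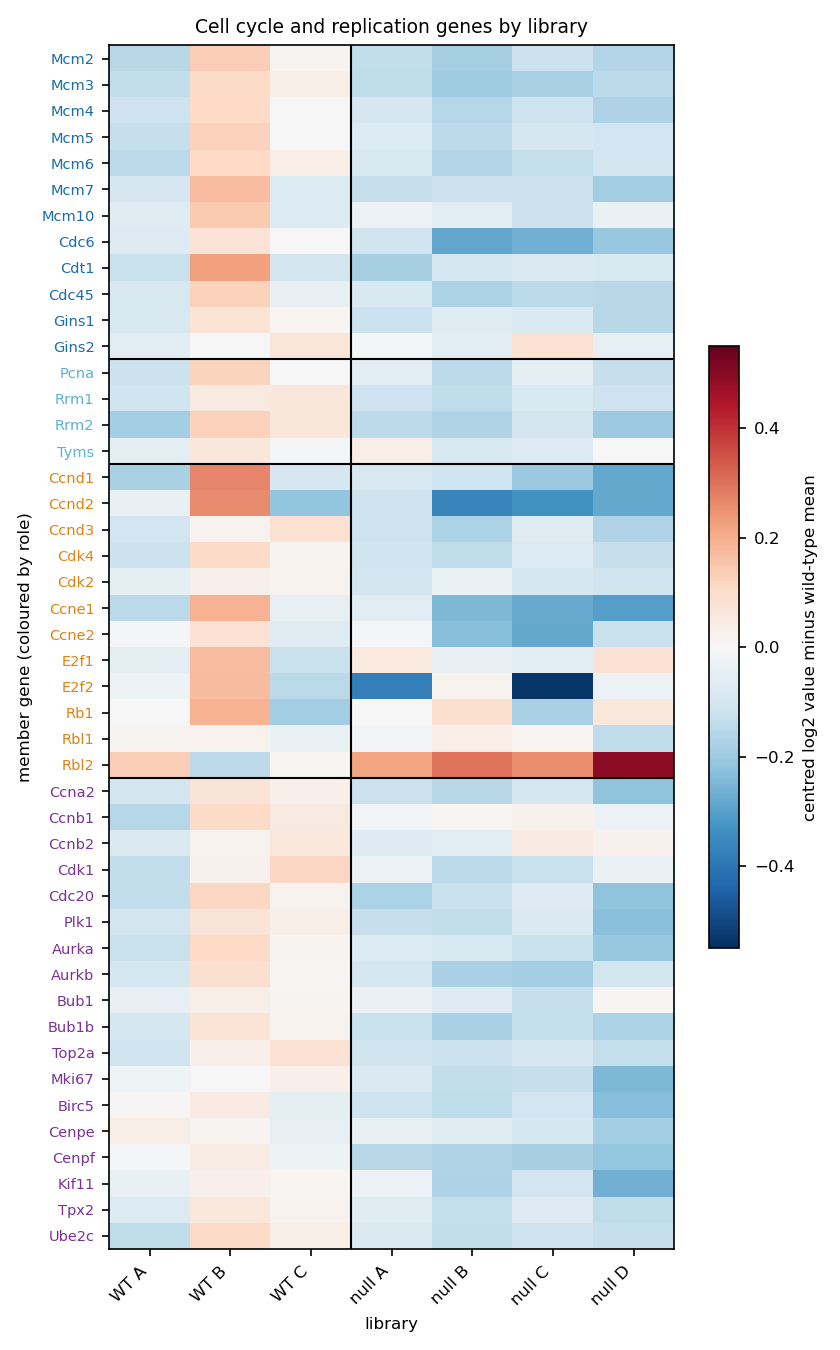
Centred log2 value of each member minus its wild-type mean (colour), for 3 wild-type and 4 null libraries (columns) and 46 genes (rows, ordered and coloured by role). Wild-type B is red in most rows and wild-type A is close to the null libraries, while the Rbl2 row is red across all null libraries.

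Markers of neighbouring tissues also set wild-type B apart, and those of blood set wild-type C apart. Summed over the list, as multiples of the library's median gene, 7 neural tube markers reached 6.52 in wild-type B, against 2.73 to 3.03 in the other wild-type libraries and 1.43 to 4.03 in null libraries. The 6 markers of somite derivatives reached 5.40 there, against 1.41 to 2.44 and 1.20 to 3.61. The 12 presomitic and tailbud markers summed to 19.997 in wild-type B, 23.5 and 25.7 in A and C, and 23.0 to 26.9 in null libraries, so the labelled tissue was represented in all 7. Sums of the 5 notochord markers did not overlap between groups, at 1.36 to 1.54 in wild-type and 2.03 to 2.52 in null libraries. Taken singly, 3 of the 5 (60%) were higher in every null library, against 6.51% of all tested genes. None of the 5 was called (smallest limma adjusted p = 0.207). Sums of the 6 hindgut markers overlapped, at 4.37 to 6.96 and 5.88 to 7.11. Of these 6, Cdh1 and Sox17 (33.3%) were higher in every null library, against 6.51% of all tested genes. The gap was under 0.01 in Sox17. At an unadjusted limma p under 0.05, 4 of the 6 (66.7%) were higher, against 7.29% of all tested genes. The other 2 had changes below 0, and none of the 6 was called (smallest limma adjusted p = 0.352). Sums of 4 endothelial markers were 5.70 in wild-type B and 7.92 to 11.0 in the other libraries. Those of 6 blood markers were 6.30 in wild-type C and 3.46 to 4.62 in the other libraries, and those of lateral plate overlapped between groups. Markers with no read were Olig2 in null B and C, Pax1 in null A, null D and wild-type C, and Uncx in wild-type C. The part of tissue composition in the values of the members was not tested. In bulk tissue, fewer cycling cells and less RNA per cycling cell cannot be told apart.

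Genes of origin licensing and the replicative helicase included no called gene, and their direction depended on the scale. All 12 centred changes were below 0, with a median of -0.13 (0.916 times wild-type), whereas as deposited 11 of 12 were above 0, with a median of 0.066. On the centred scale 5 of 12 (41.7%) were lower at an unadjusted p under 0.05, against 6.71% of all tested genes. Of all tested genes 57.5% had a centred change below 0. Cdc6, the ATPase that loads MCM on origins, had centred values of 1.21, 1.36 and 1.28 in wild-type A to C and 1.17, 1.00, 1.02 and 1.07 in null A to D. The groups did not overlap, although null A came within 0.04 of wild-type A. Its change was -0.22 (SE 0.06, limma adjusted p = 0.312), the lowest of the 12, and its reads were 2266 to 2629 in wild-type and 2188 to 2512 in null libraries.

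The MCM2-7 subunits, which form 1 ring in equal parts, had closely similar changes of -0.10 to -0.17. Mcm3 stood at 2.31, 2.55 and 2.48 in wild-type A to C and at 2.31, 2.25, 2.27 and 2.30 in null A to D. Wild-type A and null A were equal at the second decimal, so the separation of the groups rests on a difference smaller than 0.01. The change of Mcm3 was -0.17 (SE 0.06, limma adjusted p = 0.352). Mcm7 had 1.45, 1.71 and 1.47 in wild-type and 1.42, 1.43, 1.42 and 1.35 in null libraries, again without overlap, with a change of -0.14 (adjusted p = 0.363). Wild-type B alone stood well above the others in Mcm7.

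Mcm5, the most abundant member of this group per length, overlapped between groups, at 2.41, 2.66 and 2.54 in wild-type and 2.46, 2.39, 2.45 and 2.44 in null libraries (change -0.10, adjusted p = 0.400). Null A lay above wild-type A in this gene. The remaining changes were -0.14 for Cdc45, -0.11 for the loader Cdt1, -0.10 for Gins1, -0.06 for Mcm10 and -0.01 for Gins2. Gins2 shares 2758 of its 4097 exon bases with Gse1 on the opposite strand, and the strand setting of the counting is not given in the sources used here, so the reads of these genes may be mixed.

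Genes of the replication fork and nucleotide supply had 4 of 4 centred changes below 0, against 57.5% of all tested genes, with a median of -0.10. As deposited 4 of 4 were above 0, with a median of 0.088. Rrm1, the large subunit of ribonucleotide reductase, had 2.32, 2.47 and 2.49 in wild-type and 2.31, 2.29, 2.34 and 2.31 in null libraries. Wild-type A lay within the null range and the other 2 wild-type libraries above it, giving a change of -0.11 (SE 0.05, limma adjusted p = 0.352). Its partner subunit Rrm2, the most abundant of the 4 per length, had 1.61, 1.93 and 1.86 against 1.66, 1.64, 1.70 and 1.60. The change of Rrm2 was -0.15 (adjusted p = 0.361), and wild-type A was again among the null libraries. Tyms, thymidylate synthase and the least abundant of the 4, overlapped fully, at 0.88, 0.99 and 0.92 against 0.96, 0.85, 0.86 and 0.93 (change -0.03, adjusted p = 0.785). Pcna, the sliding clamp, had a change of -0.10 (adjusted p = 0.479).

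Genes of G1/S control varied most among the members. Of 12 genes, 10 changes (83.3%) were below 0, against 57.5% of all tested genes, and 2 above. The median was -0.12 and the range from -0.27 to 0.32. The positive regulators Ccnd2 and Ccne1 had the lowest values next to E2f2. Ccnd2 had 2.34, 2.64 and 2.16 in wild-type and 2.27, 2.02, 2.05 and 2.10 in null libraries, a change of -0.27 (SE 0.11, limma adjusted p = 0.352). The groups overlapped through null A, and without wild-type B the change was -0.14. Ccne1, cyclin E1, had 0.96, 1.30 and 1.07 against 1.05, 0.86, 0.83 and 0.81, a change of -0.22 (SE 0.09, adjusted p = 0.352). Null A was the highest null library in both cyclins, and wild-type B the highest wild-type library. The names of these 2 library columns end in the same number, 18, whose meaning is not given in the sources used here.

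Cdk4, the kinase partner of the D cyclins and the most abundant gene of this group per length, had 1.97, 2.19 and 2.10 in wild-type and 1.97, 1.94, 2.01 and 1.96 in null libraries (change -0.11, limma adjusted p = 0.363). Changes were -0.17 for Ccnd1, -0.13 for Ccnd3, -0.16 for Ccne2 and -0.09 for Cdk2. The E2F activators gave 0.01 for E2f1 and -0.23 for E2f2 (SE 0.15, adjusted p = 0.447), the latter with 434 to 682 reads in null and 491 to 648 in wild-type libraries.

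The pocket proteins did not share a direction. Rb1 had a change of -0.01 and Rbl1 of -0.03, with limma adjusted p = 0.971 and 0.804. Rbl2, the pocket protein best known from resting cells, was the only member higher in every null library (2.17%, against 6.51% of all tested genes). It had 456, 314 and 344 reads in wild-type A to C and 474, 520, 471 and 603 in null A to D. Centred values were -1.32, -1.59 and -1.44 in wild-type and -1.23, -1.15, -1.20 and -0.96 in null libraries. Null D was the highest and wild-type B the lowest, and wild-type A and null A were 0.08 apart. The change was 0.32, or 24.5% above wild-type (SE 0.11, 95% interval 0.06 to 0.57, limma adjusted p = 0.352), so it did not pass the test. It was above 0 under every scaling tried, with 0.51 as deposited, 0.27 with cyclic loess, 0.25 with quantile normalization and 0.17 when centred on all rows.

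A shift common to a whole library leaves differences between members as they are. Relative to the median of the other 45 members, Rbl2 stood at -2.53 ± 0.17 (SD, n = 4) over null libraries and at -2.97 ± 0.25 (SD, n = 3) over wild-type libraries. Every null library was above every wild-type library, with -2.65 the lowest null value and -2.71 the highest wild-type value. Relative to Rbl1 the values were -2.25 ± 0.19 (SD, n = 4) and -2.59 ± 0.15 (SD, n = 3), also without overlap. Rbl2 was singled out because its groups did not overlap in these same libraries. These contrasts restate that choice in part and are no independent support. The Rbl2 change minus the Rbl1 change was 0.34 as centred, 0.25 with cyclic loess and 0.23 with quantile normalization, which also act on trends with level. Rbl2 shares 1585 of its 7558 exon bases with Aktip and Gm45464 on the opposite strand. Aktip had centred values of -0.05, 0.02 and -0.01 in wild-type and 0.11, 0.04, 0.13 and 0.12 in null libraries, a change of 0.11 (adjusted p = 0.368). Both genes were thus higher in every null library, and how far reads are shared between them was not tested.

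**Figure D5:**
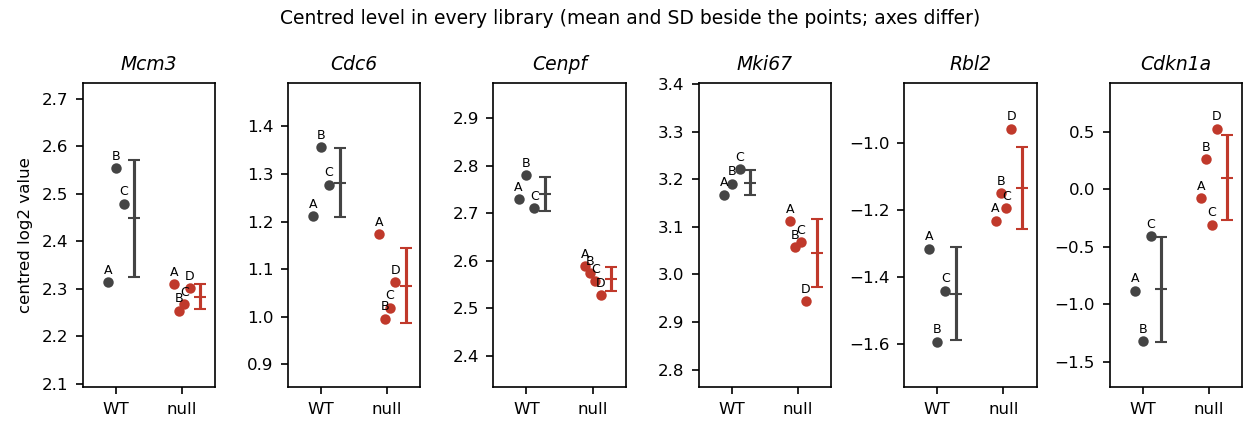
Centred log2 value (y axis, ranges differ between panels) of 5 members and the CDK inhibitor Cdkn1a in each library, lettered within its group; bars give the mean and SD of 3 wild-type and 4 null libraries. Mcm3, Cdc6, Cenpf and Mki67 lie lower and Rbl2 and Cdkn1a higher in every null library, with the smallest gap in Mcm3.

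No gene of G2 and mitosis was called, and the direction of the group depended on the scale. All 18 centred changes were below 0, with a median of -0.13 (0.914 times wild-type), whereas as deposited all 18 were above 0, with a median of 0.062. On the centred scale 9 of 18 (50%) were lower at an unadjusted p under 0.05, against 6.71% of all tested genes. Of all tested genes 57.5% had a centred change below 0. Cenpf, a kinetochore protein that accumulates in G2, had 2.73, 2.78 and 2.71 in wild-type and 2.59, 2.57, 2.56 and 2.53 in null libraries. The groups were 0.12 apart, and leaving out any library kept the change between -0.19 and -0.16. The change was -0.18 (SE 0.04, limma adjusted p = 0.207), or 11.7% below wild-type. Reads of Cenpf were 6118 to 7532 in wild-type and 6354 to 6876 in null libraries, and its change on the deposited scale was 0.01.

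Mki67, which encodes the proliferation marker Ki-67, had 3.17, 3.19 and 3.22 in wild-type and 3.11, 3.06, 3.07 and 2.94 in null libraries. Null D was lowest and null A nearest to the wild-type libraries (change -0.15, SE 0.05, limma adjusted p = 0.352). Bub1b, the checkpoint protein BubR1, had 2.27, 2.44 and 2.38 against 2.24, 2.19, 2.23 and 2.19 (change -0.15). Birc5, the survivin subunit of the chromosomal passenger complex, had 0.81, 0.84 and 0.75 against 0.69, 0.66, 0.70 and 0.57 (change -0.15). In both genes the groups did not overlap, and in Birc5 null D was again the lowest.

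Cdc20 had 1.39, 1.63 and 1.54 in wild-type and 1.35, 1.40, 1.45 and 1.30 in null libraries (change -0.15, limma adjusted p = 0.353), with wild-type A inside the null range. Ccnb1, cyclin B1 and the least abundant of the mitotic genes per length, had 0.25, 0.51 and 0.46 against 0.39, 0.42, 0.43 and 0.37. Wild-type A was the lowest of all 7 libraries in this gene, and the change was -0.0035 (SE 0.07, 95% interval -0.17 to 0.16). The other B cyclin, Ccnb2, had a change of -0.01 and their kinase Cdk1 of -0.08, whereas cyclin A, Ccna2, had -0.15. Kinases and motor or spindle proteins were close to each other, with -0.14 for Plk1, -0.12 for Aurka, -0.14 for Aurkb, -0.06 for Bub1, -0.14 for Kif11, -0.10 for Tpx2 and -0.10 for Cenpe. Top2a, the topoisomerase that untangles sister chromatids, and Ube2c, an enzyme of cyclin destruction, each had -0.11.

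The level of replication genes relative to mitotic genes overlapped between the groups. The mean of the 16 licensing, helicase, fork and nucleotide genes minus that of the 18 mitotic genes averaged -0.15 ± 0.02 (SD, n = 4) over null libraries. Wild-type libraries averaged -0.15 ± 0.05 (SD, n = 3). Wild-type B was the highest at -0.10, and the other libraries lay between -0.18 and -0.13. By promoter class, the median change was -0.12 in the 10 members with an E2F match and -0.12 in the 26 without, and -0.14 in the 17 with a CHR match and -0.11 in the 19 without.

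Other genes of the same machinery, listed beside the members, were also uncalled. None of 120 tested genes was called. Their centred changes had a median of -0.09, and 106 (88.3%) were below 0, against 57.5% of all tested genes. As deposited 115 were above 0 with a median of 0.10. Of 43 further replication genes 38 were below 0 (median -0.09), and 3 (6.98%) did not overlap between groups with null lower, against 6.24% of all tested genes; the smallest p belonged to Rfc1, of the clamp loader, and Wdhd1, a fork protein, with changes of -0.13 and -0.12 (limma adjusted p = 0.352 for each). Of 44 further mitotic genes 39 were below 0 (median -0.11), and in 12 of them (27.3%, against the same 6.24%) every null library lay below every wild-type library, among them the kinase Melk (-0.14) and the cytokinesis factor Ect2 (-0.13). Of 16 E2F, DREAM and G1 genes 15 were below 0 (median -0.14), led by Tfdp2, an E2F partner (-0.14, adjusted p = 0.315), and the repressor E2f7 (-0.14, adjusted p = 0.345). The lowest change of that list was -0.49 for Myc (adjusted p = 0.361), in which null D stood far below the other libraries. All 13 checkpoint genes were below 0 (median -0.07), with -0.13 for Mdc1 and -0.20 for Atm.

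The CDK inhibitors, which oppose the cyclin kinases, had 3 of 4 changes above 0 and 1 (25%) below. Of all tested genes 57.5% were below 0. The 3 changes above 0 were 0.97 for Cdkn1a, 0.11 for Cdkn1b and 0.02 for Cdkn2d. Of 7 listed, 4 passed the filter and none was called. Cdkn1a, the p53 target p21, had 616, 380 and 704 reads in wild-type A to C and 1055, 1387, 872 and 1690 in null A to D. Every null library was above every wild-type library, with null C and wild-type C only 0.10 apart after centring. Such a separation was found in 6.51% of all tested genes. The centred change was 0.97 (SE 0.25, 95% interval 0.41 to 1.54, limma adjusted p = 0.279). Cdkn1c, the imprinted inhibitor p57, had a change of -0.23 (adjusted p = 0.402), and Cdkn1b and Cdkn2d had 0.11 and 0.02. Cdkn2a, Cdkn2b and Cdkn2c had at most 38 reads in any library and were not tested.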

How the data were processed

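RNA-seq libraries of 3 wild-type and 4 Smchd1-null samples were compared. The submitters' processing notes name mm10, TopHat2 2.0.12, bcl2fastq and edgeR, without their order. Which tool counted reads, over which annotation and with which strand setting is not stated there. The authors deposited log2 values, which are log2 RPM. Denominators recovered from the values were 59.2 to 68.2 (in units of 1e6 reads), and with them every value checked under 1000 reads came out whole (tolerance 0.01), so reads could be recovered. Reads in listed genes were 28.8% to 37.9% of the denominator. The lowest shares were in wild-type C (28.8%) and B (31.2%), against 34.3% to 37.9% in the other libraries.

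The filter kept genes whose deposited log2 value exceeded 0 in 3 or more libraries. Values were centred on the autosomal median of each library, and all 13997 genes were fitted with limma 3.58.1 (R 4.3.3), using a trended prior, and p-values were adjusted by Benjamini-Hochberg (threshold 0.05). Exon lengths are from GENCODE M21, and RPKM was computed from the deposited values. The fit was tested on simulated data. Libraries of a group differed by more than sampling noise (chi-square per degree of freedom 7.61 to 20.6) and each was kept as a replicate. Tables were made with Python 3.11.15.

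Members and lists were chosen with earlier results of these data known. Values in every library were given for members without overlap between groups and, in each role group, for those of smallest p and of highest and lowest level per length, and of the other pathway lists the 2 of smallest p were named; other named members and Aktip were chosen after their values were seen. Rad9a and Foxf1, of the listed genes, were not analysed here. The alternatives were other scalings, filters, a pseudocount of 1, a robust prior, a block on the last number in the column names and leaving out each library; centring on all rows, voom and a block on the first number in the column names were chosen after seeing the data.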

Additional observations from a re-analysis of the deposited data

Results flagged for a closer look

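Among the 51 values examined for a null library far from the other 3 (46 members, 4 role means and the mean of all members), 2 were found, where chance gives about 1 in 20. Mcm7 had a centred value of 1.35 in null D, against 1.42 to 1.43 in the other null libraries. Cdk2 had 1.35 in null B, against 1.27 to 1.29 in the others.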

How the results depend on the processing

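No member and none of the other pathway genes was called under any of the 18 alternatives run, with the smallest limma adjusted p among members between 0.107 and 0.620. The median member change was -0.12 as reported and was 0.071 on the deposited scale and -0.26 when centred on all rows; it lay between -0.17 and -0.08 when each library was left out in turn. Of all tested genes, 8 were called as reported, 16 with quantile normalization, 19 with cyclic loess, 3 when centred on all rows, 0 with the block on the first number in the column names (lowest adjusted p 0.320) and 4 to 10 when a library was left out; the cause was not tested.

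On the deposited scale, where 0.19 is added to each change by construction, 40 of the 44 members below 0 turned above 0. Among the genes given library by library or leading a further list these were Birc5 0.046, Bub1b 0.041, Ccnb1 0.19, Cdc20 0.045, Cdk4 0.079, Cenpf 0.014, Mcm3 0.027, Mcm5 0.089, Mcm7 0.053, Mki67 0.045, Rrm1 0.079, Rrm2 0.039 and Tyms 0.16 among members, and E2f7 0.052, Ect2 0.061, Mdc1 0.063, Melk 0.050, Rfc1 0.065, Tfdp2 0.052 and Wdhd1 0.074 among the others. With quantile normalization and cyclic loess 8 members turned above 0 in each, and with voom 6; of the members given library by library these were Ccnb1 and Tyms, at 0.017 and 0.012 with quantile normalization, 0.025 and 0.016 with cyclic loess and 0.043 and 0.014 with voom, and E2f1 turned to -0.13 when centred on all rows. When a library was left out, Ccnb1 ranged from -0.082 to 0.050, Tyms from -0.056 to 0.0011 and E2f1 from -0.052 to 0.095. None of these changes was called.

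With the replicate block on the last number in the column names, no member was called, the median member change was -0.11 and Ccnb1 turned to 0.0082. The number is shared by libraries of both groups, but deviations of same-numbered libraries correlated at -0.05 to 0.41, and not every library correlated best with its own number, so no pairing was assumed. The first number in the names groups them differently, and null D correlated best with wild-type B (0.22), which shares it. Wild-type C shares both the first and the last number with null D, but correlated with null D at -0.05. The planned edgeR and DESeq2 fits on whole reads were not run, and voom on the recovered reads was run in their place. Rbl2 and E2f2 had few reads and the widest intervals of the members; the part of depth in this was not tested.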
